A study of Mus musculus with 16 samples.

Results

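The genes described here are 46 mouse genes that act in mitosis, chosen by name from knowledge of cell division and read in pre-pro-B and pro-B cells of adult bone marrow and fetal liver. A member was found by its symbol or an older synonym (Cdc2a for Cdk1) among the named probes, and each gene was read from its brightest probe that was well above background. Of the 46 genes, 45 had such a probe, out of 21757 genes and unnamed transcripts tested. The remaining one, Cenpf, a large kinetochore protein, was matched by no probe and is not analysed here.

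Expression was measured on 16 two-colour Agilent whole-genome arrays, 4 in each of 4 groups of BALB/c mice. In each bone marrow sort, cells of 16 adult females were pooled and separated into fraction A (Fr.A, pre-pro-B cells in Hardy's scheme) and fraction B/C (Fr.B/C, the pro-B cells that come next). Each fetal liver sort did the same with the embryos of 1 litter, on average 8, at day 16 of gestation. No allele was altered and no agent was given in any group, as far as the labels state. Every array carried 1 sample against a common reference, a pool of total RNA. It came from the lines P388d, DN3, EL4, J558, RS2 and R1, 6 in all, so a log2 ratio of 0 means the same signal as in that pool. Ratios of different genes are not set against each other, because each gene has its own level in the reference. In a sorted population, fewer dividing cells and less RNA per dividing cell cannot be told apart.

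Mitosis is driven by cyclin B bound to the kinase Cdk1, which condenses the chromosomes and builds the spindle. The spindle checkpoint holds the cell until all kinetochores are attached, and the anaphase-promoting complex then degrades cyclin B and securin so that sister chromatids part. Many of these genes are transcribed late in the cell cycle and are silent in resting cells, and early B-cell development is known for bursts of division driven by cytokines and by the pre-B-cell receptor.

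Several of the genes share promoter elements known from late cell-cycle genes, the cell cycle genes homology region (TTTGAA or TTCGAA) and the CCAAT box. The 120 bases before the RefSeq start site are shown for 5 members that carry both and whose values are given further on. They are a ubiquitin-conjugating enzyme, an activator of the anaphase-promoting complex, separase, a spindle motor and the mitotic kinase itself, and capitals mark each match on either strand (TTCAAA and ATTGG are the reverse strands of TTTGAA and CCAAT).
Ube2c: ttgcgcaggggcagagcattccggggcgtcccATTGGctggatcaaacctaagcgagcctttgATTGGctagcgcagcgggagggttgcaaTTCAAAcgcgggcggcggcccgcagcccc
Cdc20: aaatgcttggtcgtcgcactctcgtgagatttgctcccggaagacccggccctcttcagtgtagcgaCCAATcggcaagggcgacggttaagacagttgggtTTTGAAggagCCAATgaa
Espl1: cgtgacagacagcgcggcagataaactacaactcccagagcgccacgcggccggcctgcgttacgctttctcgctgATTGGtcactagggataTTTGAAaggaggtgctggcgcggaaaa
Kif11: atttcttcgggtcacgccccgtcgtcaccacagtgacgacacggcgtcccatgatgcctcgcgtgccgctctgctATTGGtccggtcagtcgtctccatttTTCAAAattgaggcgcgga
Cdk1: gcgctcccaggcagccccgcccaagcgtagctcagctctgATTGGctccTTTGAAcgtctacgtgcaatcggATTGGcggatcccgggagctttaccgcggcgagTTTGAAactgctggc

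The stretches lie in RefSeq's GRCm38.p6 at chr2:164769809-164769928 on the plus strand (Ube2c), chr4:118437344-118437463 on the minus strand (Cdc20), chr15:102296173-102296292 on the plus strand (Espl1), chr19:37376262-37376381 on the plus strand (Kif11) and chr10:69352913-69353032 on the minus strand (Cdk1). The homology region began 29 bases before the start in Ube2c, 18 in Cdc20, 27 in Espl1 and 19 in Kif11, and at both 71 and 15 bases in Cdk1. Of the 46 genes, 39 had a window of 250 bases before to 50 after a start in that table. TTTGAA or TTCGAA, on either strand, stood in 30 of these 39 (76.9%), against 21.7% of the 27025 genes in the table. CCAAT stood in 30 of 39 (76.9%) against 41.1%, and both motifs in 27 (69.2%) against 9.65%. In the stretch from 60 bases before to 50 after the start, 71.8% of the members held the homology region, against 5.86% of all genes. These are matches of letters and were not tested as binding sites. No window was found for Ccna2, Cdc25c, Aurkb, Incenp, Tpx2, Kif20a and Smc4.

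Before the members, the fractions were checked by their markers. Flt3, a receptor of early progenitors, fell from Fr.A to Fr.B/C by 2.96 in bone marrow and by 3.23 in fetal liver on the log2 scale (SE 0.21 each). Of 15 early B-lineage genes tested, Flt3 among them, 14 exceeded the background on each fetal liver Fr.B/C array and all 15 on each array of the other groups. With stage 9 rose and 2 fell in bone marrow, against 13.5% and 18.8% of all features. In fetal liver 9 rose and 4 fell, against 10.1% and 12.8%. Between tissues, 1 was higher and 3 lower in fetal liver Fr.A, against 12.3% and 17.3%. In fetal liver Fr.B/C none was higher and 7 were lower, against 13.9% and 14.7%. Across the 16 arrays, 53.0% to 68.4% of probes were well above background in the channel of the sample. Fetal liver arrays were scanned in other sessions than bone marrow arrays, so tissue and scan session cannot be told apart. In every group, arrays 1 and 2 were scanned apart from arrays 3 and 4 and resembled each other more, with r = 0.926 to 0.981 within such a set and 0.908 to 0.943 between sets.

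Other cells were also seen by their markers. Against the same bone marrow fraction, fetal liver was higher in 10 of 12 erythroid genes at the Fr.A stage and in 9 at the Fr.B/C stage, and lower in none. Of all features, 12.3% were higher and 17.3% lower at the Fr.A stage, and 13.9% and 14.7% at the Fr.B/C stage. The mean log2 ratio of the erythroid genes ran from 0.46 to 0.55 in bone marrow Fr.A and from 1.45 to 2.90 in fetal liver Fr.A. It was 0.17 to 0.39 in bone marrow Fr.B/C and 1.60 to 2.57 in fetal liver Fr.B/C. Within fetal liver the arrays split by set, with 1.50 and 1.45 on arrays 1 and 2 of Fr.A and 2.90 and 2.89 on arrays 3 and 4. The summed signal of these genes in the sample channel was 6230 to 8670 in bone marrow Fr.A and 26300 to 86900 in fetal liver Fr.A. For Fr.B/C it was 4530 to 5020 in bone marrow and 35100 to 73700 in fetal liver. Rhag, a red-cell membrane protein, was well above background on no bone marrow array.

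Markers of the T and NK lineages went the other way. At the Fr.A stage 5 of 9 such genes were lower in fetal liver than in bone marrow (17.3% of all features), among them the cytotoxic granule gene Nkg7. None of the 9 was higher (12.3% of all features). Their summed sample signal was 13700 to 17500 in bone marrow Fr.A and 4340 to 5480 in its Fr.B/C, and 3640 to 4610 in fetal liver Fr.A and 1940 to 2200 in its Fr.B/C. Ncr1, a receptor of NK cells, was well above background on 3 arrays of bone marrow Fr.A and on none of the other groups. Myeloid genes summed to 138000 to 213000 in bone marrow Fr.A and 59000 to 79900 in its Fr.B/C, and 53300 to 66900 in fetal liver Fr.A and 8280 to 17300 in its Fr.B/C. Of 9 myeloid genes tested, 2 were higher in fetal liver Fr.A (Csf1r by 1.77 and Prtn3 by 0.99) and 3 lower, against 12.3% and 17.3% of all features. With stage 2 fell in bone marrow and 5 in fetal liver, against 18.8% and 12.8% of all features. In fetal liver Csf1r fell by 2.62 and Prtn3 by 1.23. Of 5 hepatocyte genes, the 2 tested (Afp and Trf) summed to 1070 to 1550 in bone marrow Fr.A and to 594 to 629 in fetal liver Fr.A. The part of these other cells in the changes below was not tested.

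The mitosis genes were lowest in bone marrow Fr.A and highest in fetal liver Fr.B/C. The median log2 ratio of the 45 genes was -0.66, -0.68, -0.88 and -0.90 on the 4 bone marrow Fr.A arrays. On the fetal liver Fr.A arrays it was -0.10, -0.09, -0.16 and -0.12. These groups stood well apart, and each was narrow. On bone marrow Fr.B/C the median was 0.03, 0.04, -0.08 and -0.01, and on fetal liver Fr.B/C it was 0.42, 0.34, 0.01 and 0.15. The Fr.B/C groups overlapped, because arrays 3 and 4 of fetal liver lay close to bone marrow. By group means, 43 of 45 members were lowest in bone marrow Fr.A (all but Smc2, on the probe used, and Smc4), and 28 were highest in fetal liver Fr.B/C. A further 11 were highest in bone marrow Fr.B/C and 6 in fetal liver Fr.A (Cenpe, Kif11, Hmmr, Ect2, Smc2 and Smc4). The order of group means was not counted over all features. The median log2 ratio of all features lay between -0.03 and 0.07 on every array.

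**Figure D1:**
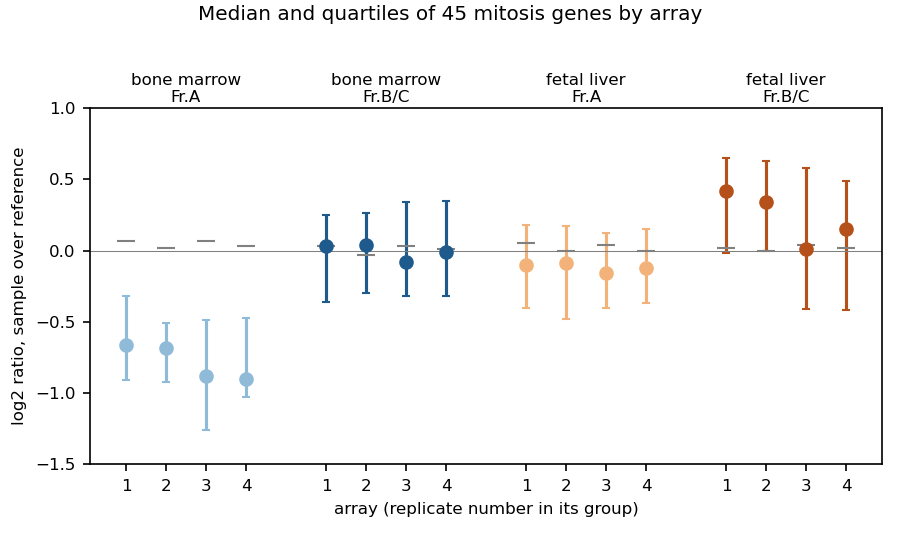
Median (point) and quartiles (bars) of the log2 ratios, sample over reference, of the 45 mitosis genes on each of the 16 arrays, with the median of all 21757 features as a grey dash. The 4 bone marrow Fr.A arrays lie between -0.90 and -0.66, below every other array.

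In Fr.A, 32 of the 45 genes were higher in fetal liver than in bone marrow at an adjusted p under 0.05 (limma, 4 arrays against 4), and none was lower. Over all features 12.3% were higher and 17.3% lower. The median change of the members was 0.60 on the log2 scale against a median of -0.015 over all features, and all 45 had a positive sign. In Fr.B/C, 11 members were higher and none lower, where 13.9% and 14.7% of all features were called, and the median change was 0.15. When arrays were only centred on their median in place of loess, 16 members were called higher at the Fr.A stage and 6 at the Fr.B/C stage, with none lower. The split of all calls then moved from 2673 higher and 3755 lower to 932 and 3132 in Fr.A, and from 3029 and 3198 to 873 and 3363 in Fr.B/C.

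From Fr.A to Fr.B/C in bone marrow, 35 members rose and none fell, where 13.5% of all features rose and 18.8% fell, and the median step was 0.72. In fetal liver 18 rose and 3 fell (Cenpe, Smc2 and Smc4), where 10.1% of all features rose and 12.8% fell, and the median step was 0.31. Median centring gave 28 and 12 rising members. All calls in fetal liver then moved from 2188 higher and 2781 lower to 841 and 1806. In bone marrow they moved from 2945 and 4089 to 1563 and 2550. Arrays of 1 number in a tissue were taken to come from 1 sort, and with that number as a block within each tissue the rising members were 42 and 24. With the sets of arrays averaged they were 25 and 5, and with the set as a random block 28 and 12. The block added Cdc25c, Mad2l1, Ttk, Cenpe, Ndc80, Kif23 and Top2a in bone marrow (adjusted p = 0.00901 to 0.0441). In fetal liver it added Aurkb, Bub1b, Cenpa, Ckap2, Kif20a and Kif23 (adjusted p = 0.000952 to 0.0299). With scan session as a block, 40 rose in bone marrow and 23 in fetal liver. Over all features the rising calls were 2945 and 2188 without a block, and 3951 and 3170 with the number as a block. They were 1208 and 710 with the sets averaged, 1805 and 1220 with the set as a random block, and 3627 and 3097 with session as a block.

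**Figure D2:**
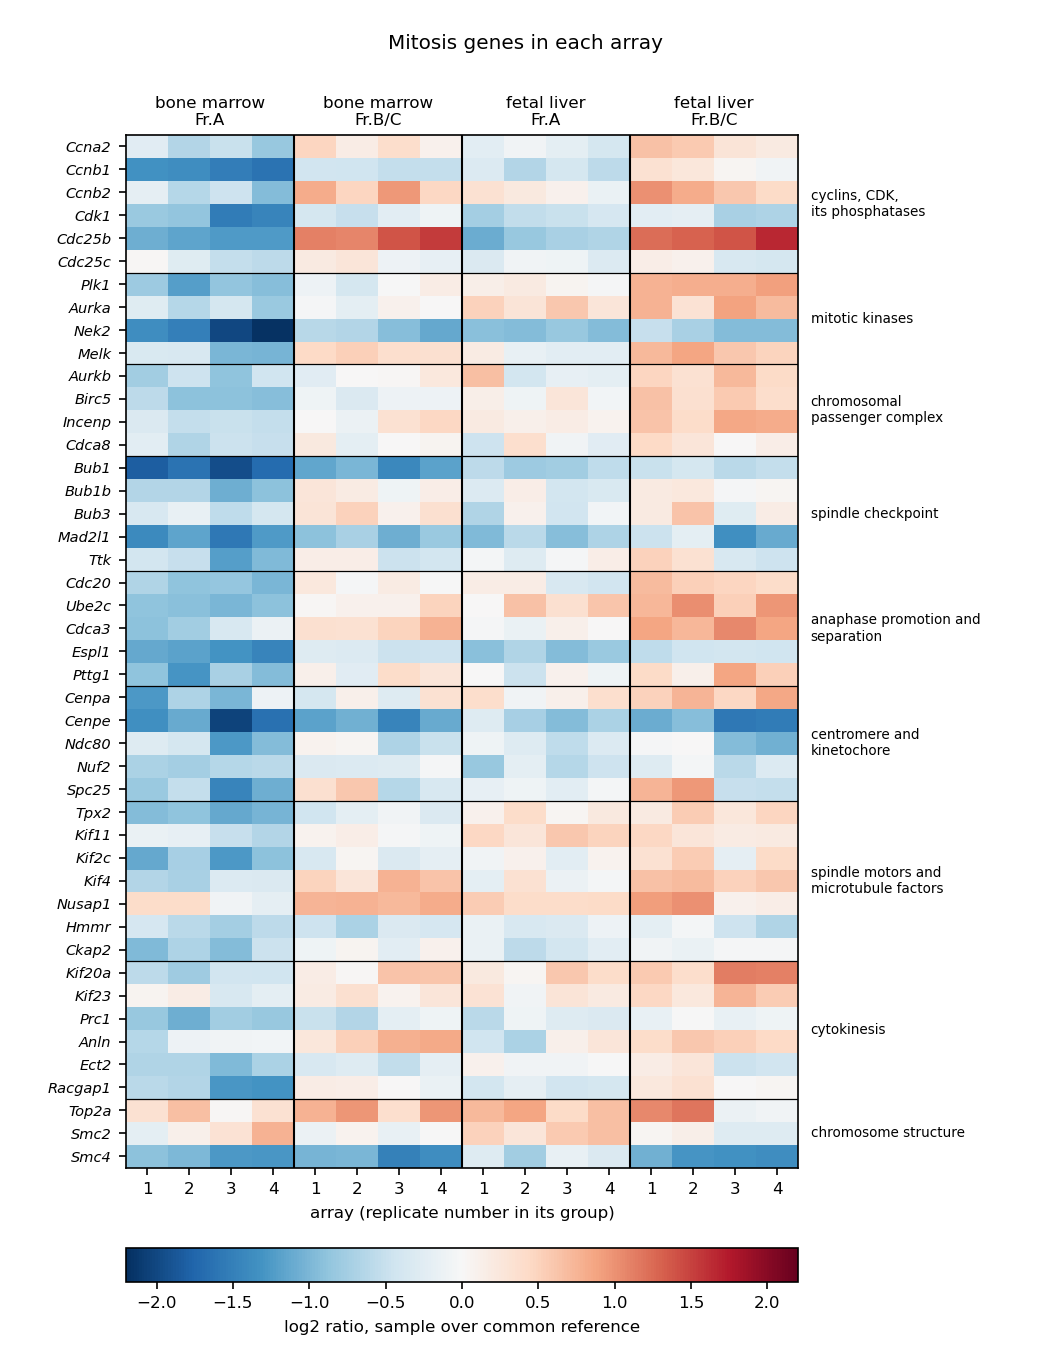
Log2 ratio of sample over reference for each of the 45 mitosis genes (rows, grouped by role) on each of the 16 arrays (columns, numbered within their group). Blue cells are below the reference and red cells above it, and blue is most frequent in the 4 bone marrow Fr.A columns.

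Of the 6 genes for cyclins, their kinase and its phosphatases, 4 were higher in fetal liver Fr.A and 1 in fetal liver Fr.B/C, while 5 rose along the bone marrow step and 4 along the fetal liver step. For this and the following role groups, the shares of all features in these comparisons were 12.3%, 13.9%, 13.5% and 10.1%. Ccnb1, cyclin B1, read -1.34, -1.36, -1.52 and -1.62 in bone marrow Fr.A. It read -0.30, -0.64, -0.38 and -0.57 in fetal liver Fr.A, so the tissues did not overlap, and the difference was 0.99 ± 0.10 (adjusted p = 2.12e-06), or 1.98-fold. In Fr.B/C it read -0.42, -0.44, -0.52 and -0.53 in bone marrow and 0.34, 0.25, 0.05 and -0.08 in fetal liver, again apart, with a difference of 0.62 ± 0.10 (adjusted p = 0.00023). The other probes of Ccnb1 gave 1.20 and 1.29 in Fr.A, larger than the one used.

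Cdc25b, the phosphatase that first activates Cdk1, made the largest stage step of all 45 genes in both tissues. It read -1.07, -1.16, -1.24 and -1.24 in bone marrow Fr.A and 1.10, 1.08, 1.39 and 1.53 in bone marrow Fr.B/C. In fetal liver it read -1.10, -0.83, -0.72 and -0.66 in Fr.A and 1.23, 1.29, 1.39 and 1.65 in Fr.B/C. Every Fr.B/C array was above the reference and every Fr.A array below it. The steps were 2.45 ± 0.12 (5.47-fold, adjusted p = 7.6e-10) and 2.22 ± 0.12 (4.65-fold, adjusted p = 3.07e-09). Their difference of -0.24 ± 0.17 did not pass the test (adjusted p = 0.492). Its Fr.A change between tissues was 0.35 ± 0.12 (adjusted p = 0.0419), a call that was lost when any of 7 arrays was left out.

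Ccnb2, cyclin B2, read -0.19, -0.62, -0.45 and -0.96 in bone marrow Fr.A and 0.81, 0.48, 0.96 and 0.45 in bone marrow Fr.B/C. Its bone marrow step of 1.23 ± 0.13 (adjusted p = 3.24e-06) was the next largest after Cdc25b. In fetal liver it read 0.33, 0.22, 0.10 and -0.15 in Fr.A and 1.01, 0.81, 0.59 and 0.42 in Fr.B/C, a step of 0.58 ± 0.13 (adjusted p = 0.00449). The fractions were apart in both tissues. Ccna2, cyclin A2, which acts from S phase on, rose by 0.84 ± 0.12 along the bone marrow step and 0.65 ± 0.12 along the fetal liver step. Its Fr.A tissue difference of 0.33 ± 0.12 just missed the threshold (adjusted p = 0.05 after rounding).

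Cdk1 read -0.81, -0.87, -1.54 and -1.46 in bone marrow Fr.A and -0.38, -0.50, -0.24 and -0.10 in Fr.B/C, a step of 0.86 ± 0.18 (adjusted p = 0.00121). In fetal liver Fr.A it read -0.75, -0.55, -0.49 and -0.37, above bone marrow Fr.A by 0.63 ± 0.18 (adjusted p = 0.0126). In fetal liver Fr.B/C it read -0.24, -0.20, -0.72 and -0.68, and the step there was 0.08 ± 0.18 (adjusted p = 0.814). The sets of arrays gave opposite signs, for on arrays 3 and 4 alone Cdk1 fell by 0.27 along that step (adjusted p = 0.0204). That fit holds 2 arrays per group, so its p-value measures the spread within 1 set only. It called 4720 of all 21757 features lower along the step. Cdc25c, a second activating phosphatase, passed no test in the main fit, which holds no replicate block, with changes from -0.16 to 0.37. Its bone marrow step passed with that block (adjusted p = 0.0142).

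Of the mitotic kinases, all 4 were higher in fetal liver Fr.A and all 4 rose in bone marrow, while 2 were higher in fetal liver Fr.B/C and 2 rose in fetal liver. Plk1, which acts from mitotic entry to cytokinesis, read -0.80, -1.22, -0.87 and -0.94 in bone marrow Fr.A and 0.13, 0.20, 0.06 and -0.02 in fetal liver Fr.A. In Fr.B/C it read -0.12, -0.38, -0.01 and 0.16 in bone marrow and 0.76, 0.80, 0.80 and 0.91 in fetal liver. None of these 4 comparisons of Plk1 had overlapping groups. Fetal liver was higher by 1.05 ± 0.11 in Fr.A (2.07-fold, adjusted p = 4.03e-06) and by 0.90 ± 0.11 in Fr.B/C (1.87-fold, adjusted p = 2.15e-05), the largest change between tissues in Fr.B/C. The stage steps were 0.87 ± 0.11 and 0.73 ± 0.11.

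Aurka, the kinase of centrosome maturation, read -0.26, -0.63, -0.39 and -0.82 in bone marrow Fr.A and 0.51, 0.29, 0.59 and 0.26 in fetal liver Fr.A. In Fr.B/C it read -0.02, -0.22, 0.10 and 0.00 in bone marrow and 0.76, 0.32, 0.88 and 0.69 in fetal liver. Fetal liver was above bone marrow on every array, by 0.94 ± 0.09 (adjusted p = 2.33e-06) and 0.70 ± 0.09 (adjusted p = 5.4e-05). Its step in fetal liver of 0.25 ± 0.09 did not pass (adjusted p = 0.0754).

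Nek2, which parts the centrosomes, read -1.37, -1.50, -2.01 and -2.17 in bone marrow Fr.A and -0.61, -0.65, -0.94 and -1.12 in bone marrow Fr.B/C. In fetal liver it read -0.92, -0.96, -0.83 and -0.95 in Fr.A and -0.51, -0.72, -0.95 and -0.96 in Fr.B/C. Bone marrow Fr.A stood below the other groups, which overlapped. Its bone marrow step was 0.94 ± 0.17 (adjusted p = 0.00039) and its fetal liver step 0.13 ± 0.17 (adjusted p = 0.662). Melk, a kinase of proliferating progenitors, rose by 1.10 ± 0.16 in bone marrow (adjusted p = 6e-05) and by 0.78 ± 0.16 in fetal liver (adjusted p = 0.00181). It read -0.33, -0.36, -1.0 and -1.03 in bone marrow Fr.A and 0.44, 0.52, 0.37 and 0.35 in its Fr.B/C. In fetal liver it read 0.18, -0.17, -0.23 and -0.24 in Fr.A and 0.71, 0.86, 0.60 and 0.49 in Fr.B/C. The fractions of each tissue were apart. Its Fr.A tissue difference of 0.57 ± 0.16 (adjusted p = 0.0133) was lost without bone marrow Fr.A array 3 or 4.

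The chromosomal passenger complex corrects wrong kinetochore attachments and then marks the cleavage site. Of its 4 genes, 3 were higher in fetal liver Fr.A and 2 in fetal liver Fr.B/C, and 4 rose in bone marrow and 2 in fetal liver. Birc5, survivin, read -0.58, -0.90, -0.91 and -0.93 in bone marrow Fr.A and 0.13, -0.09, 0.26 and -0.06 in fetal liver Fr.A, a difference of 0.89 ± 0.08 (adjusted p = 8.81e-07). In Fr.B/C it read -0.09, -0.32, -0.12 and -0.12 in bone marrow and 0.64, 0.36, 0.58 and 0.39 in fetal liver, a difference of 0.65 ± 0.08 (adjusted p = 2.42e-05). Fetal liver was higher on every array at both stages. Its spot was saturated on 1 array of fetal liver Fr.B/C, the only saturation among the members.

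Incenp, the scaffold of the complex, was higher in fetal liver by 0.60 ± 0.12 in Fr.A (adjusted p = 0.00152) and 0.51 ± 0.12 in Fr.B/C (adjusted p = 0.00559). It read -0.32, -0.52, -0.49 and -0.53 in bone marrow Fr.A and 0.19, 0.12, 0.17 and 0.07 in fetal liver Fr.A, with no overlap. Aurkb, the kinase of the complex, was higher in fetal liver Fr.A by 0.60 ± 0.19 (adjusted p = 0.0273). That group held 1 high array, with 0.66 against -0.40, -0.18 and -0.21 on the others. Without it, or without bone marrow Fr.A array 1 or 3, the call was lost (adjusted p = 0.0711 to 0.0886). Cdca8, borealin, was called in bone marrow alone (0.49 ± 0.16, adjusted p = 0.028; lost without any of 6 arrays), and its probes disagreed, with Fr.A tissue differences of 0.37 on the brighter and 1.28 on the dimmer probe.

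Among the spindle checkpoint genes, 4 of 5 were higher in fetal liver Fr.A and 1 in fetal liver Fr.B/C, and 3 rose in bone marrow and 1 in fetal liver. Bub1, the kinase that recruits the checkpoint to kinetochores, read -1.82, -1.63, -1.95 and -1.70 in bone marrow Fr.A and -0.58, -0.80, -0.76 and -0.56 in fetal liver Fr.A. In Fr.B/C it read -1.15, -1.0, -1.41 and -1.18 in bone marrow and -0.49, -0.39, -0.59 and -0.52 in fetal liver. Both tissue pairs were apart, and all 16 arrays lay below the reference. The differences were 1.10 ± 0.09 in Fr.A (2.15-fold, adjusted p = 3.01e-07) and 0.69 ± 0.09 in Fr.B/C (adjusted p = 4.51e-05). Its bone marrow step was 0.59 ± 0.09 (adjusted p = 0.000119) and its fetal liver step 0.18 ± 0.09 (adjusted p = 0.199).

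Bub1b, BubR1, read -0.64, -0.64, -1.07 and -0.91 in bone marrow Fr.A and -0.30, 0.14, -0.40 and -0.33 in fetal liver Fr.A, a difference of 0.59 ± 0.13 (adjusted p = 0.00211). In Fr.B/C its groups overlapped and the difference was -0.01 ± 0.13. Mad2l1, the inhibitor of Cdc20, and Ttk, the apical checkpoint kinase Mps1, were called higher in fetal liver Fr.A at adjusted p = 0.0282 and 0.0296. Each of these calls was lost when any of 5 arrays was left out. Bub3, which carries Bub1 to the kinetochore, differed between tissues by 0.10 ± 0.13 and -0.13 ± 0.13, neither of which passed, and rose with stage by 0.67 ± 0.13 in bone marrow and 0.44 ± 0.13 in fetal liver. The latter was lost without fetal liver Fr.A array 1 or fetal liver Fr.B/C array 1 or 2 (adjusted p = 0.0733 to 0.0811).

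Of the 5 genes of anaphase promotion and chromatid separation, all were higher in fetal liver Fr.A, all rose along both stage steps, and 2 were higher in fetal liver Fr.B/C. Ube2c, which hands ubiquitin to substrates of the anaphase-promoting complex, read -0.88, -0.92, -1.01 and -0.91 in bone marrow Fr.A and 0.01, 0.65, 0.36 and 0.61 in fetal liver Fr.A. In Fr.B/C it read 0.03, 0.10, 0.09 and 0.49 in bone marrow and 0.73, 1.02, 0.53 and 0.97 in fetal liver. Bone marrow Fr.A was far below all other arrays, and fetal liver Fr.A overlapped fetal liver Fr.B/C. Its Fr.A difference of 1.34 ± 0.11 (2.53-fold, adjusted p = 2.71e-07) was the largest of all members. In Fr.B/C the difference was 0.64 ± 0.11 (adjusted p = 0.000473), and the steps were 1.11 ± 0.11 (adjusted p = 1.39e-06) in bone marrow and 0.40 ± 0.11 (adjusted p = 0.0139) in fetal liver. Without fetal liver Fr.A array 1 the adjusted p of the last was 0.0515.

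Cdc20, the activator of the complex, read -0.66, -0.89, -0.85 and -1.01 in bone marrow Fr.A and 0.23, -0.02, 0.18 and -0.01 in bone marrow Fr.B/C. In fetal liver it read 0.16, 0.17, -0.36 and -0.42 in Fr.A and 0.70, 0.53, 0.47 and 0.41 in Fr.B/C. All 4 comparisons separated its groups and all 4 were called, with changes of 0.74 ± 0.13 and 0.43 ± 0.13 between tissues and steps of 0.95 ± 0.13 and 0.64 ± 0.13. The Fr.B/C call (adjusted p = 0.0196) was lost without bone marrow Fr.B/C array 2 or fetal liver Fr.B/C array 1 or 2, at adjusted p = 0.0506 to 0.0543.

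Espl1, separase, which cuts cohesin, read -1.12, -1.18, -1.32 and -1.45 in bone marrow Fr.A and -0.29, -0.30, -0.48 and -0.46 in bone marrow Fr.B/C. In fetal liver it read -0.92, -0.67, -0.96 and -0.81 in Fr.A and -0.56, -0.44, -0.41 and -0.43 in Fr.B/C. The fractions were apart in both tissues, with steps of 0.89 ± 0.09 (adjusted p = 2.3e-06) and 0.38 ± 0.09 (adjusted p = 0.00667). Pttg1, securin, the inhibitor of separase, rose by 1.09 ± 0.14 and 0.60 ± 0.14 along the same steps and was 0.84 ± 0.14 higher in fetal liver Fr.A. Cdca3, which helps degrade the inhibitor of mitotic entry, rose by 1.03 ± 0.15 in bone marrow and 0.89 ± 0.15 in fetal liver. In fetal liver it read -0.03, -0.14, 0.12 and 0.00 in Fr.A and 0.87, 0.73, 1.06 and 0.86 in Fr.B/C, well apart. Its Fr.A tissue difference of 0.53 ± 0.15 (adjusted p = 0.0148) was lost without bone marrow Fr.A array 1 or 2.

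**Figure D3:**
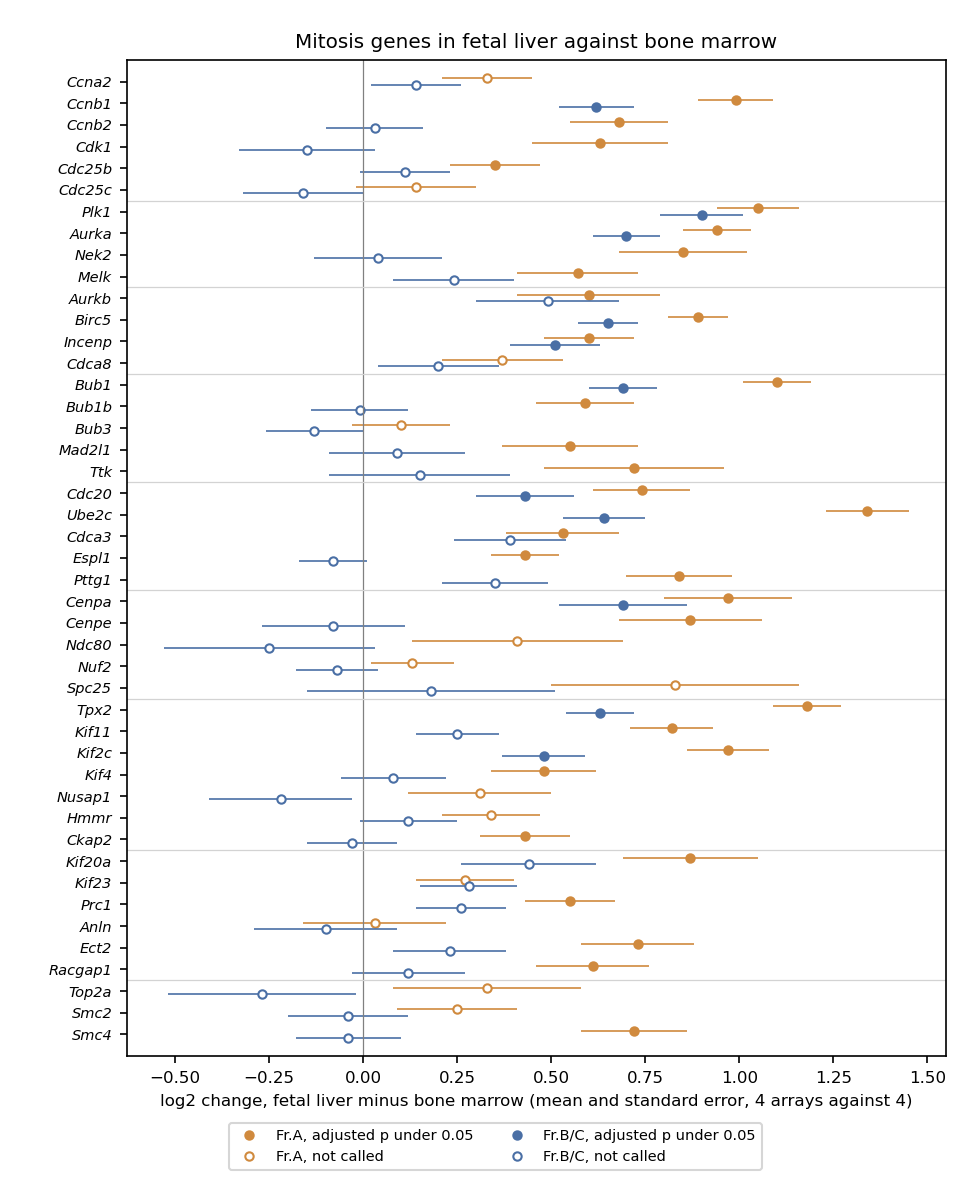
Log2 change of each of the 45 mitosis genes between fetal liver and bone marrow, with its standard error, at both stages; filled points passed an adjusted p of 0.05. All 45 Fr.A changes are positive, up to 1.34 for Ube2c, and the Fr.B/C changes run from -0.27 to 0.90.

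Of 5 centromere and kinetochore genes measured, 2 were higher in fetal liver Fr.A and 1 in fetal liver Fr.B/C, while 3 rose in bone marrow and 1 fell in fetal liver. Cenpa, the histone variant of centromeres, read -1.27, -0.68, -1.01 and -0.12 in bone marrow Fr.A and 0.39, -0.07, 0.12 and 0.37 in fetal liver Fr.A. The bone marrow arrays were spread widely (SD 0.50), but the groups did not overlap, and the difference was 0.97 ± 0.17 (adjusted p = 0.000428). In Fr.B/C it read -0.39, 0.11, -0.28 and 0.34 in bone marrow and 0.50, 0.74, 0.45 and 0.85 in fetal liver, a difference of 0.69 ± 0.17 (adjusted p = 0.00628).

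Cenpe, the kinesin that brings chromosomes to the spindle equator, moved against the majority in fetal liver. It read -1.35, -1.11, -2.04 and -1.64 in bone marrow Fr.A, and -1.18, -1.06, -1.46 and -1.11 in bone marrow Fr.B/C. In fetal liver it read -0.29, -0.73, -0.96 and -0.70 in Fr.A and -1.09, -0.93, -1.58 and -1.53 in Fr.B/C. Fetal liver Fr.A was highest, and the fetal liver fractions overlapped slightly. It fell by 0.61 along the fetal liver step (SE 0.19, adjusted p = 0.0325), a call lost without fetal liver Fr.A array 1 or 4 or fetal liver Fr.B/C array 3 or 4 (adjusted p = 0.0521 to 0.119). In Fr.A fetal liver was higher by 0.87 ± 0.19 (adjusted p = 0.00313). The dimmer Cenpe probe gave changes of the same sign and smaller size, 0.40 between tissues in Fr.A and -0.34 along the fetal liver step.

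The outer kinetochore genes Ndc80, Nuf2 and Spc25, whose products bind microtubules in 1 complex, passed no tissue comparison. Spc25 read -0.81, -0.52, -1.46 and -1.07 in bone marrow Fr.A and 0.35, 0.59, -0.63 and -0.35 in bone marrow Fr.B/C. In fetal liver it read -0.18, -0.10, -0.23 and -0.05 in Fr.A and 0.74, 0.96, -0.51 and -0.52 in Fr.B/C. Arrays 3 and 4 lay below arrays 1 and 2 in both Fr.B/C groups. On arrays 1 and 2 alone its fetal liver step was 0.99, and on arrays 3 and 4 alone it fell by 0.38 (adjusted p = 0.0143). The latter fit holds 2 arrays per group, so its p-value measures the spread within 1 set only. It called 4720 of all 21757 features lower along this step. The bone marrow step of Spc25, 0.96 ± 0.33 (adjusted p = 0.0368), was lost when any of 4 arrays was left out. Nuf2 rose in bone marrow by 0.43 ± 0.11 (adjusted p = 0.00759). Ndc80 passed no test in the main fit (bone marrow step 0.45 ± 0.28), and that step passed with a replicate block (adjusted p = 0.0178).

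Spindle motors and microtubule factors were higher in fetal liver Fr.A in 5 of 7 genes and in fetal liver Fr.B/C in 2, and 6 rose in bone marrow and 2 in fetal liver. Tpx2, which activates Aurka on the spindle, read -0.96, -0.88, -1.12 and -1.03 in bone marrow Fr.A and 0.10, 0.40, 0.04 and 0.21 in fetal liver Fr.A. In Fr.B/C it read -0.44, -0.22, -0.08 and -0.32 in bone marrow and 0.19, 0.55, 0.25 and 0.48 in fetal liver. Every fetal liver array was above 0 and every bone marrow array below it. The differences were 1.18 ± 0.09 (2.27-fold, adjusted p = 2.01e-07) and 0.63 ± 0.09 (adjusted p = 0.000139).

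Kif11, the motor that pushes the spindle poles apart, read -0.15, -0.18, -0.51 and -0.64 in bone marrow Fr.A and 0.08, 0.14, -0.03 and -0.09 in bone marrow Fr.B/C. In fetal liver it read 0.46, 0.26, 0.59 and 0.49 in Fr.A and 0.45, 0.27, 0.18 and 0.20 in Fr.B/C. It was higher in fetal liver Fr.A by 0.82 ± 0.11 (adjusted p = 5.69e-05), and its steps were 0.39 ± 0.11 (adjusted p = 0.0141) in bone marrow and -0.17 ± 0.11 (adjusted p = 0.328) in fetal liver. The bone marrow call was lost without bone marrow Fr.A array 3 or 4 or bone marrow Fr.B/C array 2 (adjusted p = 0.0501 to 0.0577).

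Kif2c, which depolymerises microtubules at kinetochores, read -1.12, -0.73, -1.27 and -0.90 in bone marrow Fr.A and -0.08, 0.09, -0.24 and 0.08 in fetal liver Fr.A. The groups were apart by 0.97 ± 0.11 (adjusted p = 5.32e-06). Its fetal liver step of 0.31 ± 0.11 (adjusted p = 0.0466) was lost when any of 12 arrays was left out. Kif4, a chromosome-arm motor, rose in both tissues, by 1.03 ± 0.14 in bone marrow and 0.63 ± 0.14 in fetal liver. Hmmr, a spindle-pole protein, was the dimmest member, well above background on 2 arrays of bone marrow Fr.A, 4 of fetal liver Fr.A and 3 of each Fr.B/C group. It passed no test in the main fit. Its Fr.A tissue change of 0.34 ± 0.13 (adjusted p = 0.0573) was called in 8 alternative settings, counting those that leave out 1 array. Nusap1, which bundles microtubules, rose in bone marrow alone (0.63 ± 0.19, adjusted p = 0.0213), a call lost without bone marrow Fr.A array 3 or 4 or bone marrow Fr.B/C array 4. Ckap2, another spindle protein, rose in bone marrow by 0.72 ± 0.12 on the brighter probe and by 0.00 on a dim second probe.

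For cytokinesis, 4 of 6 genes were higher in fetal liver Fr.A and none in fetal liver Fr.B/C, and 5 rose in bone marrow and 2 in fetal liver. Kif20a, a motor of the central spindle, read -0.58, -0.78, -0.42 and -0.43 in bone marrow Fr.A and 0.22, 0.05, 0.60 and 0.41 in fetal liver Fr.A, apart by 0.87 ± 0.18 (adjusted p = 0.00182). Ect2, the exchange factor that activates RhoA, read -0.67, -0.67, -0.97 and -0.69 in bone marrow Fr.A and 0.09, -0.07, -0.08 and -0.01 in fetal liver Fr.A, apart by 0.73 ± 0.15 (adjusted p = 0.00143). For both genes the fetal liver values lay above all bone marrow ones. A dim second probe of Ect2 gave -0.02 in the same comparison, and the bone marrow step of Ect2 (0.41 ± 0.15, adjusted p = 0.045) was lost when any of 9 arrays was left out.

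Prc1, which crosslinks the central spindle, was higher in fetal liver Fr.A by 0.55 ± 0.12 (adjusted p = 0.00339). It read -0.84, -1.07, -0.77 and -0.83 in bone marrow Fr.A and -0.59, -0.10, -0.29 and -0.32 in fetal liver Fr.A, without overlap. Racgap1, a partner of Ect2, rose by 1.00 ± 0.15 in bone marrow (adjusted p = 0.000113) and by 0.51 ± 0.15 in fetal liver (adjusted p = 0.0252), the latter lost when any of 5 arrays was left out. Anln, anillin of the contractile ring, hardly differed between tissues (0.03 ± 0.19 in Fr.A, -0.10 ± 0.19 in Fr.B/C, neither called) and rose by 0.82 ± 0.19 and 0.68 ± 0.19 with stage. In fetal liver it read -0.44, -0.69, 0.11 and 0.27 in Fr.A and 0.40, 0.60, 0.52 and 0.44 in Fr.B/C, and without Fr.A array 1 or 2 that call was lost (adjusted p = 0.0528 to 0.0581). Kif23, another central-spindle motor, passed no test in the main fit, with changes of 0.27 to 0.32. Both stage steps passed with a replicate block (adjusted p = 0.0122 and 0.0136).

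Few chromosome structure genes were called, and those along the stage step fell. Of Top2a, Smc2 and Smc4, 1 was higher in fetal liver Fr.A, none rose at either step, and 2 fell along the fetal liver step. Smc4, a core subunit of condensin, read -0.90, -0.99, -1.26 and -1.28 in bone marrow Fr.A and -1.03, -1.0, -1.48 and -1.37 in bone marrow Fr.B/C. In fetal liver it read -0.29, -0.77, -0.16 and -0.32 in Fr.A and -1.05, -1.30, -1.34 and -1.36 in Fr.B/C. Fetal liver Fr.A stood above the other groups, which overlapped. It was higher in fetal liver Fr.A by 0.72 ± 0.14 (adjusted p = 0.0012) and fell by 0.87 along the fetal liver step (SE 0.14, adjusted p = 0.000287), against -0.12 ± 0.14 in bone marrow.

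Smc2, the partner of Smc4 in condensin, read 0.51, 0.27, 0.57 and 0.66 in fetal liver Fr.A and 0.04, 0.13, -0.29 and -0.29 in fetal liver Fr.B/C. The fractions were apart, and it fell by 0.60 (SE 0.16, adjusted p = 0.013), with an adjusted p of 0.0518 without fetal liver Fr.B/C array 4. In bone marrow Fr.A it read -0.21, 0.12, 0.32 and 0.77, the widest spread there in that role group (SD 0.41). Other, dimmer probes of Smc2 gave fetal liver steps of -0.49 (adjusted p = 0.189) and -0.41. Their bone marrow steps were 0.15 and 0.41, against -0.31 on the probe used, so the order of its bone marrow groups differed by probe. Top2a, which untangles sister DNA, passed no test in the main fit, and its bone marrow step passed with a replicate block (adjusted p = 0.0441). Its fetal liver Fr.B/C arrays read 1.05, 1.18, -0.13 and -0.07.

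**Figure D4:**
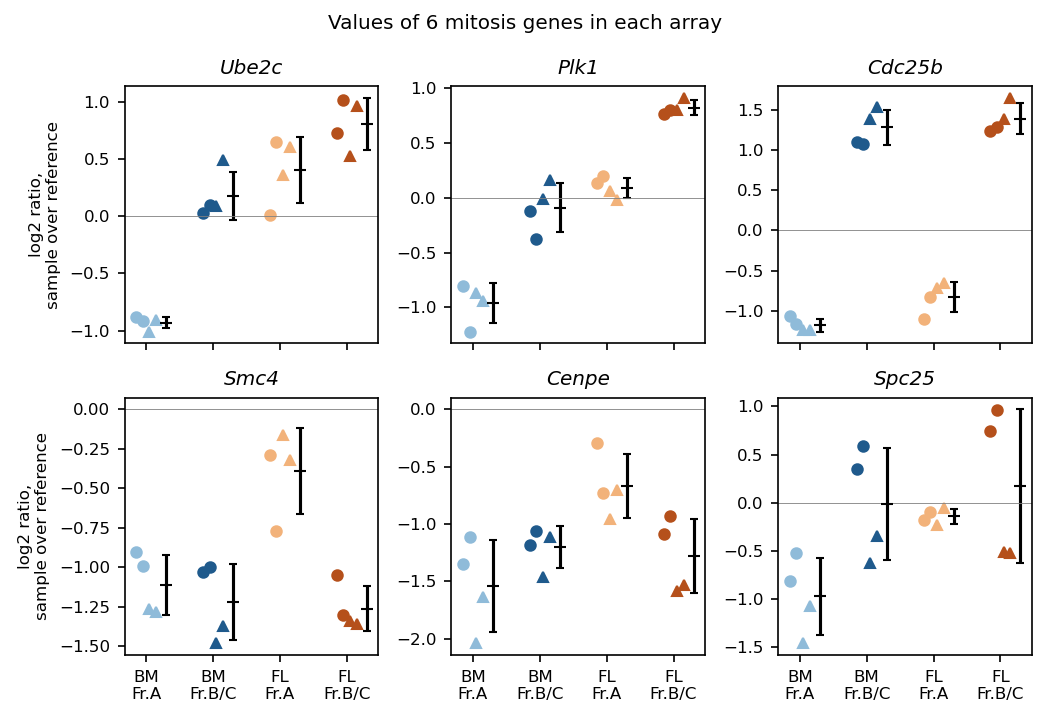
Log2 ratio, sample over reference, of 6 mitosis genes on each array, by group (BM, bone marrow; FL, fetal liver), with circles for arrays 1 and 2, triangles for arrays 3 and 4, and the group mean and SD in black. Cdc25b separates by stage, Smc4 stands highest in fetal liver Fr.A, and Spc25 splits by array set in fetal liver Fr.B/C, from 0.96 to -0.52.

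The stage steps of the tissues were compared in an interaction term, fetal liver step minus bone marrow step, and these steps share no arrays. It was negative in 44 of 45 members (all but Kif23 at 0.01 ± 0.19), with a median of -0.41 against 0.04 over all features. The test called 8 members, all negative, where 4.44% of all features were called positive and 3.02% negative. They were Cenpe (-0.95 ± 0.27, adjusted p = 0.0484), Nek2 (-0.81 ± 0.23, adjusted p = 0.0485), Smc4 (-0.76 ± 0.20, adjusted p = 0.032) and Ube2c (-0.70 ± 0.16, adjusted p = 0.0119). The others were Ccnb2 (-0.65 ± 0.19, adjusted p = 0.0468), Kif11 (-0.57 ± 0.16, adjusted p = 0.0436), Tpx2 (-0.55 ± 0.13, adjusted p = 0.02) and Espl1 (-0.50 ± 0.13, adjusted p = 0.0282). In the main fit, which holds no replicate block, these genes rose in bone marrow or, for Cenpe and Smc4, passed no test there. In fetal liver they rose less (Ube2c, Ccnb2 and Espl1), passed no test (Nek2, Kif11 and Tpx2) or fell (Cenpe and Smc4). With a replicate block within tissue the bone marrow step of Cenpe, 0.33, passed (adjusted p = 0.0361).

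The count of 8 moved with the arrays and the model. With the sort number as a block within each tissue it was 18, the added genes being Bub1, Bub1b, Pttg1, Ndc80, Kif2c, Kif4, Ckap2, Kif20a, Ect2 and Racgap1 (adjusted p = 0.00424 to 0.0486). Within the sets of arrays the median difference was -0.18 with no member called on arrays 1 and 2, and -0.57 with 31 called on arrays 3 and 4. The calls over all 21757 features moved as well. Negative ones were 658 without a block and 1591 with the block. On arrays 1 and 2 they were 298, and on arrays 3 and 4 they were 3332. After arrays 1 and 2, and arrays 3 and 4, of each group were averaged, no member was called. Of all 21757 features, 27 were then called positive and 19 negative. Leaving out 1 array left 2 to 10 calls. It left 2 without bone marrow Fr.A array 3 or 4, bone marrow Fr.B/C array 1 or 2, fetal liver Fr.A array 4 or fetal liver Fr.B/C array 4. It left 3 without fetal liver Fr.A array 1 or fetal liver Fr.B/C array 3, and 4 without fetal liver Fr.A array 3. Ube2c and Tpx2 were called whichever array was left out. Ccnb2, Nek2, Cenpe and Kif11 each lost the call without any of 12 arrays, Smc4 without any of 9 and Espl1 without any of 7 (adjusted p = 0.0520 to 0.11 where lost).

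**Figure D5:**
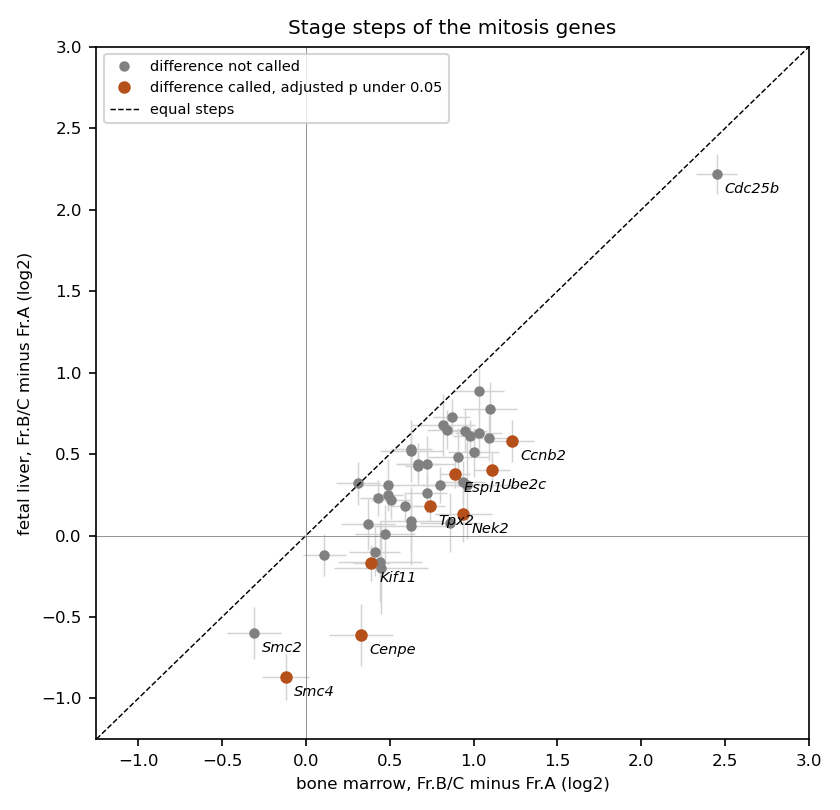
Log2 step from Fr.A to Fr.B/C in bone marrow (x axis) and in fetal liver (y axis) for the 45 mitosis genes, with standard errors; the dashed line marks equal steps, and the 8 genes whose steps differed at an adjusted p under 0.05 are coloured. All points but 1 lie below the line, Cdc25b is at 2.45 and 2.22, and Smc4 is at -0.12 and -0.87.

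For the members, the sets of arrays differed most in fetal liver Fr.B/C. There 27 of 45 members were lower on both arrays 3 and 4 than on both arrays 1 and 2, and 8 were higher. The same counts were 21 and 7 in bone marrow Fr.A, 13 and 14 in bone marrow Fr.B/C and 7 and 8 in fetal liver Fr.A. They were not taken over all features, so they do not show that the members differ from other genes in this. In fetal liver Fr.B/C the difference of arrays 3 and 4 from arrays 1 and 2 was largest for Spc25 (-1.37), Top2a (-1.21), Ndc80 (-1.0), Mad2l1 (-0.89), Nusap1 (-0.85) and Ttk (-0.83). These act at kinetochores, in the checkpoint, on microtubules and on chromosomes, whereas Plk1 differed little between sets in that group. The median tissue change within sets was 0.52 and 0.68 in Fr.A, and 0.29 and 0.05 in Fr.B/C (arrays 1 and 2 first). The bone marrow step was 0.65 and 0.80, and the fetal liver step 0.39 and 0.27. In Fr.B/C, arrays 3 and 4 alone called 16 members higher and 8 lower, among 4306 and 4738 of all 21757 features. Arrays 1 and 2 alone called 17 higher and none lower there, among 2726 and 3007. Along the fetal liver step, arrays 3 and 4 called 21 rising and 13 falling, among 4483 and 4720. So the Fr.A change and the bone marrow step were present in both sets. The median Fr.B/C change and fetal liver step were also positive in both, but 8 and 13 members were called lower on arrays 3 and 4.

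Erythroid markers were higher on fetal liver arrays 3 and 4 than on 1 and 2 (mean log2 ratio 2.90 and 2.89 against 1.50 and 1.45 in Fr.A), and the median Fr.A change of the members was 0.52 on arrays 1 and 2 alone and 0.68 on arrays 3 and 4 alone. On arrays 1 and 2, 24 of 45 members were called higher and none lower, among 2437 higher of 21757 genes. On arrays 3 and 4, 40 were higher and none lower, among 4510 higher. In Fr.B/C, erythroid markers were likewise higher on fetal liver arrays 3 and 4 (2.52 and 2.57 against 1.60 and 1.60). The median Fr.B/C change of the members was 0.29 on arrays 1 and 2 and 0.05 on arrays 3 and 4. By array, the members' median in fetal liver Fr.A was -0.10, -0.09, -0.16 and -0.12. In bone marrow Fr.A it was -0.66, -0.68, -0.88 and -0.90. The part of erythroid cells in these changes was not tested.

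Further genes of mitosis were measured beside the members. Of 98 other mitosis genes, 85 were tested. In Fr.A 35 were higher in fetal liver and none lower, against 12.3% and 17.3% of all genes, with a median change of 0.38. In Fr.B/C 21 were higher and 2 lower, against 13.9% and 14.7%. In bone marrow 44 rose and 3 fell with stage, against 13.5% and 18.8%. In fetal liver 23 rose and 3 fell, against 10.1% and 12.8%. Psrc1, a microtubule-tip protein, was 1.07 ± 0.07 higher in fetal liver Fr.A (adjusted p = 2.12e-08), Kif18b, a kinesin that shortens astral microtubules, 0.69 ± 0.08 (adjusted p = 1.27e-05), and Spc24, the partner of Spc25, 0.79 ± 0.09 (adjusted p = 1.3e-05).

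Genes of DNA replication were also followed. Of 31 S-phase genes tested, 9 were higher in fetal liver Fr.A and none lower, with a median change of 0.19, against 12.3% and 17.3% of all genes. In Fr.B/C 7 were higher and 3 lower, against 13.9% and 14.7%. With stage, 13 rose and none fell in bone marrow, against 13.5% and 18.8% of all genes. In fetal liver 4 rose and 2 fell, against 10.1% and 12.8%. Cdc6, which licenses origins, was higher in fetal liver Fr.A by 0.69 ± 0.11 (adjusted p = 0.000275), Mcm10, an initiation factor, by 0.64 ± 0.12 (adjusted p = 0.000941), and Orc6, of the origin recognition complex, by 0.42 ± 0.12 (adjusted p = 0.0129).

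Of 28 regulators of the cell cycle, 5 were higher and 5 lower in fetal liver Fr.A, where 12.3% and 17.3% of all genes tested were called, and their median change was 0.02. In Fr.B/C 7 were higher and 5 lower, against 13.9% and 14.7% of all genes. The higher ones in Fr.A included the cyclin Ccne1 (0.69 ± 0.12), E2f5 (0.83 ± 0.14) and the mitotic transcription factor Foxm1 (0.48 ± 0.10). Those of smallest adjusted p in Fr.A were 3 brakes, all lower. Cdkn1a, the CDK inhibitor p21, read 0.66, 0.53, 1.19 and 1.06 in bone marrow Fr.A and -1.71, -1.10, -1.15 and -1.04 in fetal liver Fr.A. It was lower in fetal liver on every array, with a change of -2.11 ± 0.20 (adjusted p = 1.17e-06), and of -1.34 ± 0.20 in Fr.B/C. Cdkn2c, the CDK4 and CDK6 inhibitor p18, changed by -1.13 ± 0.14 in Fr.A (adjusted p = 1.47e-05) and rose with stage by 1.26 ± 0.14 in bone marrow and 1.85 ± 0.14 in fetal liver. Rb1, the retinoblastoma protein that holds back E2F, changed by -0.63 ± 0.08 in Fr.A (adjusted p = 2.1e-05) and rose with stage by 0.63 ± 0.08 and 0.77 ± 0.08. Along the steps 14 regulators rose and 2 fell in bone marrow (13.5% and 18.8% of all genes), and 13 rose and none fell in fetal liver (10.1% and 12.8%).

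The members resembled one another across the 16 arrays to different degrees. The correlation of a gene with the mean of the other members was 0.97 for Ccnb1, 0.93 for Ube2c and Racgap1 and 0.92 for Cdc20 and Bub1b. It was 0.44 for Ndc80, 0.42 for Cenpe and Top2a, -0.03 for Smc4 and -0.35 for Smc2. The arrays share their groups, dyes and scan sets, so these values describe the pattern only. Outside all lists, the 5 named genes closest to the members' mean were Arhgef39 (r = 0.97), Mzb1 (r = 0.97), Tmem126b (r = 0.96), Atp1b1 (r = 0.95) and Dpp8 (r = 0.95), over 16 arrays. Mzb1, a chaperone of B cells, read -0.39, -0.67, -0.42 and -0.61 in bone marrow Fr.A and 1.65, 1.38, 1.34 and 1.26 in its Fr.B/C. In fetal liver it read 1.18, 1.46, 1.23 and 1.22 in Fr.A and 2.10, 2.00, 1.87 and 1.92 in Fr.B/C. It was lowest in bone marrow Fr.A and highest in fetal liver Fr.B/C, as the members' median was.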

How the data were processed

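Per the labels' protocols, total RNA (acid phenol extraction, 100 ng) was amplified and labelled with Cy3 or Cy5; the sample was in Cy5 on arrays 1 and 3 of a group and in Cy3 on arrays 2 and 4. Per the file headers, the deposited scanner files (Feature Extraction 8.5.1.1) give mean, background and processed signals of both dyes as intensity, and a log10 ratio of Cy5 over Cy3. The authors also deposited log2 ratios for the series. These ran as sample over reference, had array medians from -0.00731 to 0.0202 and correlated at r = 0.951 to 0.965 with the ratios used here; the tool listed in the submitters' processing notes is limma, and the labels do not describe how it was used.

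For the values here, background was corrected with normexp (offset 50, which compresses changes of dim genes), arrays were normalized by loess with control spots at weight 0, outlier-flagged spots were dropped, saturated ones kept, and spots of a probe averaged (limma 3.58.1, R 4.3.3). Probes well above background in the sample channel on at least 3 of 4 arrays of a group and usable on at least 12 arrays were kept, 27522 of 41174. Of all probes, 26113 were named, mostly through RefSeq accessions, and a gene was read from its brightest kept probe. Group means with a dye term were fitted to all 16 arrays, leaving 11 residual degrees of freedom, and p-values adjusted by Benjamini-Hochberg over 21757 features. The fit was tested on simulated data. An error written ± is a standard error of that fit, for 4 arrays against 4, unless marked SD.

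Each sort gave 1 sample of either fraction, per the labels' protocols, so same-numbered arrays of a tissue were taken as paired in the fit with a block within tissue. No label states a replicate block, so the main fit holds none. Same-numbered arrays of a tissue deviated together (r = 0.52 to 0.56 in bone marrow, 0.30 to 0.47 in fetal liver). Same-numbered Fr.B/C arrays of different tissues, which share no sort, did so too (r = 0.37 to 0.52). For Fr.A arrays of different tissues r was -0.16 to 0.27. Same-numbered arrays also share the dye of the sample. With the dye effect removed, r was 0.42 to 0.52 in bone marrow and 0.25 to 0.38 in fetal liver. Between tissues it was then 0.28 to 0.48 for Fr.B/C and -0.26 to 0.15 for Fr.A. These values therefore do not show which arrays share a sort. Whether arrays 1 and 2 of a group hold RNA of separate sorts is stated only by the labels' count of 4 sorts; p-values measure the spread between these arrays, whose number limits the precision. The members and lists were chosen with earlier results of these data known. Named genes were the 6 largest called changes per comparison, members against the majority, called interactions, up to 4 per role, at most 3 per other list (smallest adjusted p in Fr.A) and the 5 genes most like the members; a few further members were named after their values were seen. Alternatives were scanner-processed signals, another offset, median centring, the deposited table, other filters and probes, 1 dye alone, blocks for replicate, set and session, averaged sets, moderated fits and leaving out each array.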

Additional observations from a re-analysis of the deposited data

Results flagged for a closer look

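In 8 of 180 sets of 4 arrays (45 genes in 4 groups; 4.44%), 1 array stood far from the other 3, where chance gives about 1 in 20. Melk read 0.18 on fetal liver Fr.A array 1 against -0.24 to -0.17 on the others, Nusap1 0.55 there against 0.41 to 0.42, and Birc5 -0.58 on bone marrow Fr.A array 1 against -0.93 to -0.90. Anln was low on bone marrow Fr.A array 1, at -0.63 against -0.11 to -0.06, and Ect2 on array 3 of that group, at -0.97 against -0.69 to -0.67. In bone marrow Fr.B/C, array 4 was high for Ube2c (0.49 against 0.03 to 0.10) and Nuf2 (-0.03 against -0.32 to -0.29), and array 2 was low for Birc5 (-0.32 against -0.12 to -0.09).

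The step from Fr.A to Fr.B/C differed between the tissues, by the interaction test of limma, in 8 members, each with a smaller or more negative step in fetal liver. The difference was -0.95 for Cenpe, -0.81 for Nek2, -0.76 for Smc4, -0.70 for Ube2c, -0.65 for Ccnb2, -0.57 for Kif11, -0.55 for Tpx2 and -0.50 for Espl1. Over all features 3.02% were called negative and 4.44% positive. All but Ube2c and Tpx2 lost the call in some of the fits that left out 1 array. None of the 8 was called with median centring, either dye alone or the sets averaged.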

How the results depend on the processing

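Counts of members higher in fetal liver Fr.A were 16 with median centring, 14 and 11 on the Cy5 or Cy3 arrays alone, and 14 with sets averaged, against 32. Over all 21757 features the higher calls were 932, 819, 629 and 794 in these settings, against 2673. For Fr.B/C the members called higher were 6 with median centring, 6 and 5 by dye and 17 on arrays 1 and 2 alone, against 11. Over all features 873, 710, 627 and 2726 were higher, against 3029. On arrays 3 and 4 alone 8 members and 4738 of all features were lower. Along the bone marrow step 22 members rose on either dye alone, against 35, and 1 fell on arrays 3 and 4 alone. Over all features 973 rose on Cy5 and 970 on Cy3 arrays, against 2945, and 5204 fell on arrays 3 and 4. Along the fetal liver step 5 and 3 members rose by dye and 5 with sets averaged, against 18. Over all features 673, 489 and 710 rose, against 2188. Along that step 1 member fell with median centring, the second brightest probe, Cy5, sets averaged, the set as a random block or arrays 1 and 2. None fell with Cy3 and 13 on arrays 3 and 4, against 3. Over all features the falling calls were 1806, 2779, 1016, 1080, 1737, 2397, 785 and 4720 in these settings, against 2781. Single-dye and averaged settings hold 2 values per group in place of 4. Called interactions, 8 as reported, were 3 with processed signals, offset 10 or the deposited table and 4 without the filter. They were 0 with median centring, either dye, sets averaged, the set as a random block or arrays 1 and 2 alone, and 14 with session as a random block. Negative interactions over all features were 191 with median centring, 11 and 7 on Cy5 or Cy3 arrays, and 19 with sets averaged. They were 202 with the set as a random block, 298 on arrays 1 and 2 and 1261 with session as a random block. Among the members, called interactions were 16 with a replicate block across tissues, 18 with a replicate block within tissue or with session as a fixed block, and 31 on arrays 3 and 4. Over all 21757 features the negative interactions were 1157, 1591, 1500 and 3332 in these settings, against 658 as reported.

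Leaving out each array gave 27 to 34 members higher in Fr.A and 10 to 14 in Fr.B/C, 29 to 37 rising and 0 to 1 falling in bone marrow (1, without Fr.A array 1), 16 to 18 rising and 1 to 3 falling in fetal liver (1, without Fr.B/C array 4), and 2 to 10 called interactions. Median centring, the sets and the dyes changed counts, and the cause was not tested. The replicate block moved no other count by over 1.5 times.

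For single genes, signs turned in 11 cases in which the value was called as reported or under the alternative; values called in neither also changed sign and are not counted. On the second brightest probe Ckap2 gave -0.02 in Fr.A and 0.00 along the bone marrow step, Ect2 -0.02 and -0.04, and Anln -0.01 along the fetal liver step. On arrays 3 and 4 alone Mad2l1 gave -0.28 in Fr.B/C, and along the fetal liver step Cdk1 gave -0.27, Mad2l1 -0.42, Ttk -0.46, Spc25 -0.38 and Nusap1 -0.30. Over the settings other than leaving out an array, 349 calls of single genes were lost and 199 gained, against 3761 on the same side. Dim genes such as Hmmr have their changes compressed by the offset. Alternatives chosen after seeing the data were the sets alone, session as a fixed block and the second probe.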
